A study of Mus musculus with 2 samples.

Results

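The genes of the major histocompatibility complex (MHC) that present peptides from outside the cell, and those that prepare peptides for MHC class I, lie side by side on mouse chromosome 17. An interval of 270 kb of that chromosome, from 34220001 to 34490000 in the mm9 build, was examined in mouse Th2 cells, helper T cells of the kind that makes interleukin 4. It was chosen by position as 270 bins of 1 kb, of which 264 held at least 1 read, out of 2246042 covered bins of the genome. Its definition names 7 genes, which are Psmb9, Tap1, Psmb8, Tap2, H2-Ab1, H2-Aa and H2-Eb1, and gives their mm9 positions only to about 0.01 Mb. Psmb9, Tap1, Psmb8 and Tap2 are placed between 34.32 and 34.34 Mb and H2-Ab1 near 34.40 Mb. H2-Aa, H2-Eb1 and H2-Ea are listed together near 34.48 Mb. From the gene order given below, H2-Aa and H2-Eb1 are assumed here to lie between H2-Ab1 and that position, and what the segment and window named after these genes hold rests on that assumption. No value below is therefore the value of a single gene.

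Both libraries came from C57BL/6 splenic T cells positive for CD4 and CD62L. They were stimulated by CD3 and CD28 antibodies over 5 days, with 10 ng/ml of IL-4 and with 2 µg/ml of an interferon gamma blocking antibody, and rested for 3 days. The H3KAc library was precipitated with an antibody against acetylated histone H3, a mark of active promoters and enhancers, and the IgG library with non-specific rabbit IgG, which measures background. With 1 library per group there is no replicate check and no test, and all intervals are 95% intervals for counting error that compare these 2 libraries. The Th2 identity of the cells was not checked here, since no marker gene could be placed on the reads.

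As background, Psmb8 and Psmb9 encode catalytic subunits of the immunoproteasome, which cuts proteins into peptides suited to MHC class I. Tap1 and Tap2 encode the paired subunits of the transporter that carries those peptides into the endoplasmic reticulum, and all 4 genes are induced by interferon gamma. H2-Ab1 and H2-Aa encode the beta and alpha chains of the class II molecule I-A, and H2-Eb1 the beta chain of I-E. Class II genes are switched on by the coactivator CIITA in B cells, dendritic cells and other cells that present antigen, and mouse T cells are known for making little or none of these molecules. C57BL/6 mice make no I-E, because the promoter of H2-Ea, its alpha chain gene, is deleted in their haplotype.

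In RefSeq's gene order on GRCm38, which was used for names and neighbours only, H2-Oa, Brd2, H2-DMa, H2-DMb2 and H2-DMb1 precede Psmb9. Psmb9, Tap1, Psmb8 and Tap2 follow in that order, then H2-Ob, H2-Ab1, H2-Aa, H2-Eb1, H2-Eb2 and H2-Ea, which RefSeq types as a transcribed pseudogene. The definition places the H2-DM genes, which help load class II molecules, near 34.37 Mb, between Tap2 and H2-Ab1. In the RefSeq order they lie before Psmb9 and H2-Ob takes that place. The stretch near 34.37 Mb is therefore given no gene name here.

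Promoter sequences, available for some of the members only, were searched for short control motifs. Each runs from 250 bases before to 50 bases after the start site, 5' to 3' on the gene's strand (RefSeq, GRCm38.p6, chromosome 17). Tap1 and Psmb8 stand for the peptide supply genes. H2-Aa, printed as an example of a class II promoter, was picked with the values already known. Capitals mark matches, on either strand, to the CCAAT box (CCAAT), the X2 box core (TGACG), the interferon gamma activated site or GAS (TTCNNNGAA) and the TATA box (TATAAA).
Tap1: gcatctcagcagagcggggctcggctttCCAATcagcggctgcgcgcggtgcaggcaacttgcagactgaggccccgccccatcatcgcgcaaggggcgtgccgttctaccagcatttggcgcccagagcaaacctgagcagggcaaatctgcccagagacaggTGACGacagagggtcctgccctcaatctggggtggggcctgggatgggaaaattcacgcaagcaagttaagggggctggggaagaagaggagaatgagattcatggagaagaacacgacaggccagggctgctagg
Psmb8: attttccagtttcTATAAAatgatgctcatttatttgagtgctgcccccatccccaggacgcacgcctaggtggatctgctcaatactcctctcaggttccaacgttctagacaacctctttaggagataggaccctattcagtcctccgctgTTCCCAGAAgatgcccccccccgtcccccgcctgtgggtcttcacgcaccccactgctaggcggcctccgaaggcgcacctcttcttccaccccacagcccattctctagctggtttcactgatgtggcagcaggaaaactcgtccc
H2-Aa: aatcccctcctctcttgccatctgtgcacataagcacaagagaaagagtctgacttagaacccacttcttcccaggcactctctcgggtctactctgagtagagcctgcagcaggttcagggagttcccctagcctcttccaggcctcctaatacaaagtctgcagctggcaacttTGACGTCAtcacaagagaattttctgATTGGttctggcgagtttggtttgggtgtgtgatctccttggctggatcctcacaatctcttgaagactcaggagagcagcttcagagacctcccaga

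The table held promoters for Psmb9, Tap1, Psmb8, H2-Aa and H2-Eb1. The Tap1 and Psmb9 genes are divergent, and 275 of the 300 bases of their windows are the same DNA read on opposite strands. Tap1 has CCAAT from base -222 and TGACG from base -86, counted from the start site. In H2-Aa, TGACG matches on both strands overlap at bases -74 and -71, and a reversed CCAAT box begins at base -48, the order of X2 and Y boxes known from class II promoters. H2-Eb1 has CCAAT matches from bases -59 and -35 and no TGACG. Of all 32851 promoters in the table, 37.4% hold CCAAT and 20.8% hold TGACG, so each match by itself is common.

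Psmb8 has 1 GAS match, TTCCCAGAA from base -97, which 8.30% of all promoters hold in some form. Its TATAAA match begins at base -237, and 13.6% of all promoters hold that motif. No member's promoter in the table matched the interferon-stimulated response element (ISRE), searched as GAAA, any 2 bases and GAAA again on both strands, which 3.44% of all promoters hold. The CpG count was 17 in Psmb9, 15 in Tap1 and 11 in Psmb8, against 3 in H2-Aa and 0 in H2-Eb1, with a median of 7 over all promoters. The class II promoters in the table thus held fewer CpG than those of the peptide supply genes.

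Reads that start at 1 place on 1 strand were counted as 1 position, moved 100 bp along their strand, and divided by the positions of the library and multiplied by 1000000 (RPM). The H3KAc library held 19711169 distinct positions and the IgG library 1897666. Inside the interval there were 1.12 reads per position in H3KAc and 4.24 in IgG, near the 1.11 and 4.02 of the whole libraries. IgG was thin, with no position in 37.4% of the bins of the interval, and this set the width of every ratio's interval.

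Acetylated H3 was high in the interval as a whole, and so, to a smaller degree, was the IgG background. H3KAc stood at 1.22 RPM per kb (1.19 to 1.25) from 6502 positions and IgG at 0.863 RPM per kb (0.784 to 0.947) from 442 positions. The ratio of H3KAc to IgG was 1.42 (1.29 to 1.56). Over all other covered bins both libraries averaged 0.445 RPM per kb, which the scaling fixes near a ratio of 1. The interval was thus 2.74 times the rest of the genome in H3KAc and 1.94 times in IgG.

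The DNA on both sides differed. In the 270 kb directly before the interval H3KAc was 1.47 RPM per kb, IgG was 1.26 and their ratio was 1.17 (1.08 to 1.26). In the 270 kb after it H3KAc was 0.862 RPM per kb, IgG was 0.870 and the ratio was 0.991 (0.899 to 1.09). The interval therefore had less H3KAc than its left neighbour and more than its right one, and its ratio lay above both, beyond counting error. The rest of chromosome 17 had 0.530 RPM per kb in H3KAc and 0.559 in IgG.

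All autosomes were also divided into windows of the same 270 kb, keeping those with at least 135 covered bins. Of 8751 other windows, 132 (1.51%) had a higher H3KAc level, 905 (10.3%) a higher IgG level and 611 (6.98%) a higher ratio. On chromosome 17, 15 of 338 other windows exceeded it in H3KAc, 57 in IgG and 17 in the ratio. The interval was near the top of the genome in H3KAc and further down in the ratio.

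**Figure D1:**
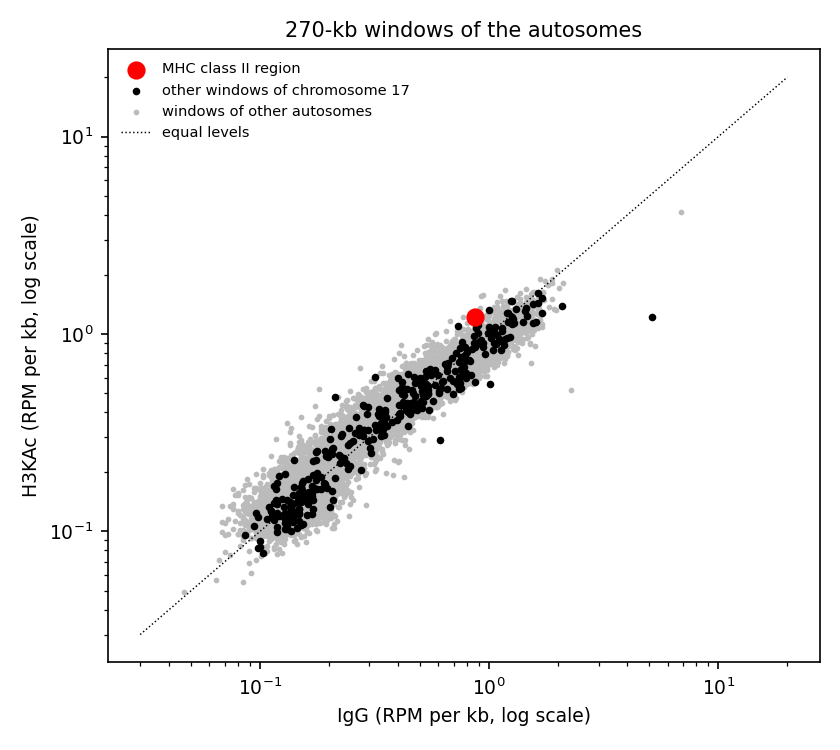
Each point is a 270-kb window of the autosomes, with IgG on the x axis and H3KAc on the y axis, both in RPM per kb on log scales. The MHC class II region, in red, lies above the dotted line of equal levels at 1.22 RPM per kb in H3KAc and 0.863 in IgG, among the windows with the most H3KAc.

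Acetylation was gathered in a few stretches. A bin was termed high when its H3KAc count reached the 99th percentile of all covered bins, 46 positions or 2.33 RPM. This rule marked 30 of the 270 bins (11.1%), against 1.02% of all covered bins. It marked 36 bins (13.3%) in the left flank and 15 (5.56%) in the right. The number of high bins was thus above the genome's share in the interval and in both flanks.

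High bins with at most 1 bin between them formed 9 stretches. These covered 32 bins, or 11.9% of the interval, and held 43.3% of its H3KAc positions but 20.4% of its IgG positions. Since H3KAc chose these bins, part of the difference between the 2 shares follows from the choice. In the 30 high bins H3KAc was 4.66 RPM per kb, IgG was 1.53 and their ratio 3.05 (2.46 to 3.82). In the other 240 bins H3KAc was 0.792 RPM per kb, IgG was 0.779 and the ratio 1.02 (0.911 to 1.14). Outside the high bins the interval was thus above the genome's 0.445 RPM per kb in both libraries alike.

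Choosing bins by H3KAc raises their ratio, so bins were also chosen on 1 strand and measured on the other, an alternative added after the data had been seen. The 99th percentile of that strand's counts was taken here over all bins covered by either strand or library. The 28 bins high by plus-strand reads had a minus-strand ratio of 3.45 (2.49 to 4.92), and the 28 high by minus-strand reads a plus-strand ratio of 2.19 (1.68 to 2.93). Chosen and measured in these ways, all other high bins of the genome had ratios of 1.82 (1.81 to 1.84) and 1.86 (1.84 to 1.88). These genome values are ratios of summed counts. Single bins outside the interval held up to 637 IgG positions, against at most 10 inside it, and their weight in these sums was not tested. Both strands came from the same library, so choosing on 1 strand and measuring on the other removes counting error from the choice and nothing else. The high bins of the interval kept a ratio above 1 either way, and the minus-chosen interval included the genome's value.

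**Figure D2:**
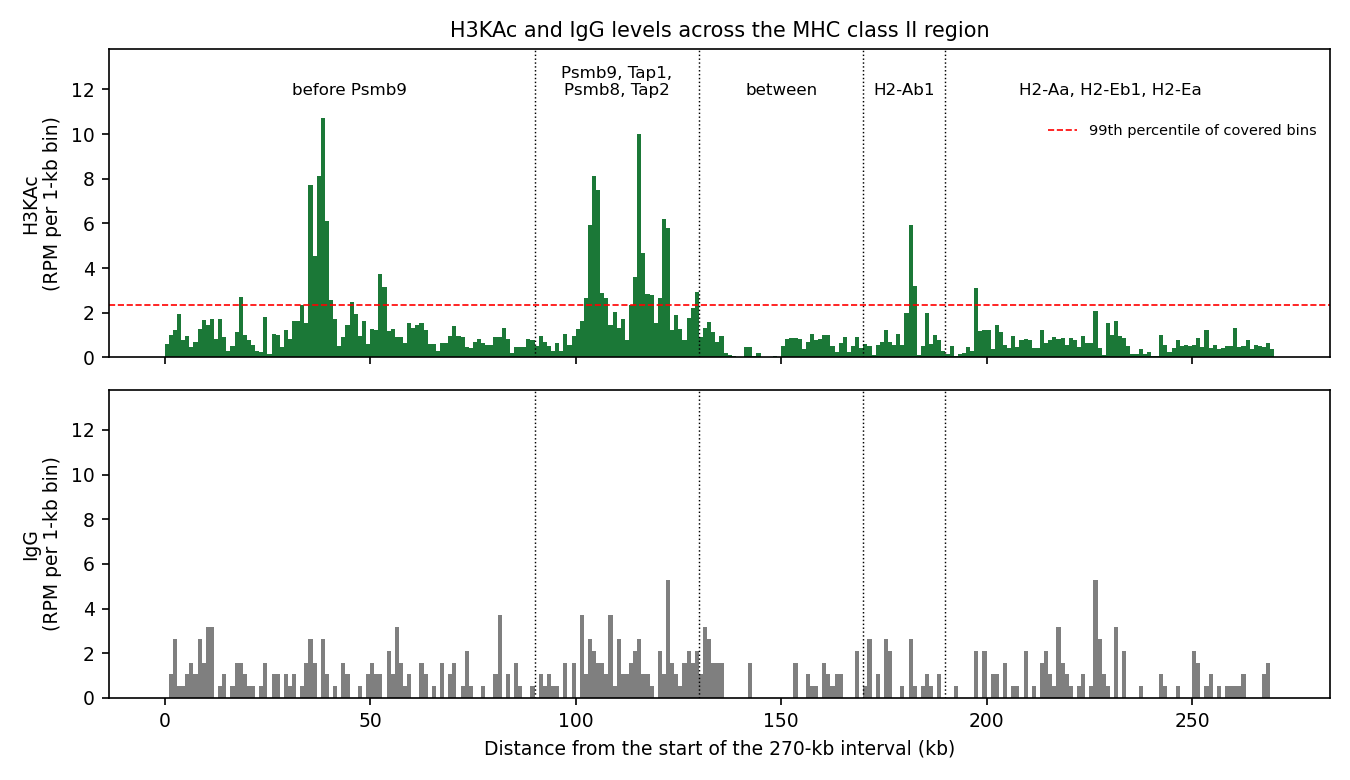
Levels of H3KAc (upper panel) and IgG (lower panel) in RPM per 1-kb bin along the interval, on the same scale, with dotted lines at the segment borders and a dashed line at 2.33 RPM, the 99th percentile of covered bins in H3KAc. The tall H3KAc bins lie before Psmb9, in the Psmb9 to Tap2 segment and at H2-Ab1, and single IgG bins reach at most 5.27 RPM.

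Segments cut from the gene positions in the definition differed several-fold in H3KAc. The 40 kb from 34310001 to 34350000, which hold the positions of Psmb9, Tap1, Psmb8 and Tap2 with 10 kb on either side, had the most, at 2.52 RPM per kb (2.41 to 2.64). IgG was also highest there, at 1.44 RPM per kb (1.18 to 1.73), and the ratio was 1.76 (1.45 to 2.15). This segment is 14.8% of the interval and held 30.6% of its H3KAc positions. The 90 kb before it had 1.44 RPM per kb (1.39 to 1.50) in H3KAc and 0.896 (0.760 to 1.05) in IgG, a ratio of 1.61 (1.37 to 1.91).

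The segments named after H2-Ab1 and after H2-Aa, H2-Eb1 and H2-Ea were lower. This does not extend to the H2-DM genes, which precede Psmb9 in the RefSeq order and whose level was not determined. The 20 kb around H2-Ab1, from 34390001 to 34410000, had 1.15 RPM per kb (1.05 to 1.26) in H3KAc and 0.790 (0.533 to 1.13) in IgG. Its ratio was 1.45, with an interval from 1.004 to 2.18, and from 0.987 to 2.14 when IgG was scaled by background bins, so a ratio of 1 was at the edge of counting error. The 80 kb of H2-Aa, H2-Eb1 and H2-Ea, from 34410001 to 34490000, had 0.672 RPM per kb (0.632 to 0.713) in H3KAc and 0.685 (0.560 to 0.830) in IgG, a ratio of 0.980 (0.801 to 1.21). No difference between the libraries was detectable over those 80 kb at this depth.

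Between Tap2 and H2-Ab1, from 34350001 to 34390000, H3KAc was 0.554 RPM per kb (0.504 to 0.609) and IgG 0.606 (0.444 to 0.808), a ratio of 0.915 (0.674 to 1.27). High bins followed the same order, with 16 of 40 bins in the Psmb9 to Tap2 segment and 11 of 90 before it. There were 2 of 20 around H2-Ab1, 1 of 80 in the H2-Aa to H2-Ea segment and 0 of 40 between Tap2 and H2-Ab1. Against the 1.02% of all covered bins, the share in the H2-Aa to H2-Ea segment, 1.25%, was near the background.

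**Figure D3:**
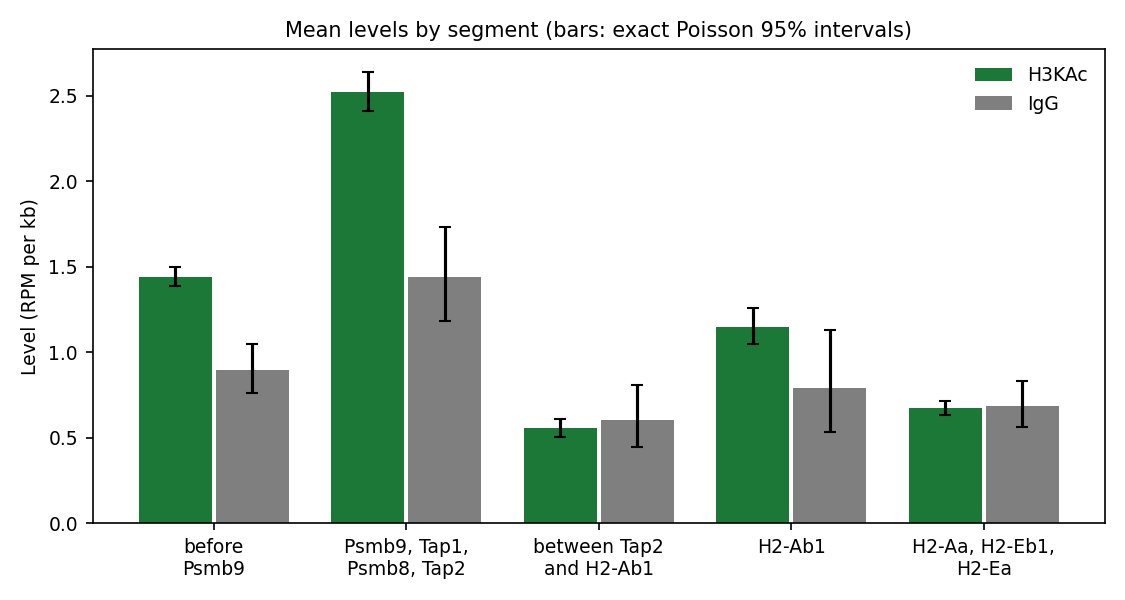
Mean H3KAc (green) and IgG (grey) levels in RPM per kb for the 5 segments in chromosome order, with exact Poisson 95% intervals. H3KAc is highest at 2.52 RPM per kb in the Psmb9 to Tap2 segment, and the bars of the 2 libraries are nearly level between Tap2 and H2-Ab1 and in the H2-Aa to H2-Ea segment.

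The peptide supply genes lay in a segment with 3 main summits of H3KAc. The first stretch ran for 6 kb, from 34322001 to 34328000, with 4.95 RPM per kb (4.56 to 5.37) in H3KAc and 1.67 (1.005 to 2.61) in IgG, a ratio of 2.97 (1.88 to 4.97). Its strongest bins, from 34323001, 34324001 and 34325001, held 117, 160 and 148 H3KAc positions and 5, 4 and 3 IgG positions. Its middle bin, at 8.12 RPM, was exceeded by 0.0377% of covered bins of the genome. The H3KAc reads were spread over both strands, 300 on the plus and 286 on the minus strand.

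At 100-bp resolution this stretch was not a single block. Its highest windows, from 34324701, held 32 positions each over 200 bp, and other maxima of 27 positions lay 1100 bp before and 600 bp after. Between the first maximum and the summit the count fell to 4 positions per 100 bp. IgG had at most 2 positions in any of these windows within 1500 bp.

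The second stretch, from 34333001 to 34343000, was the widest of the interval at 10 kb. It had 4.24 RPM per kb (3.96 to 4.54) in H3KAc and 1.74 (1.20 to 2.44) in IgG, a ratio of 2.44 (1.72 to 3.57). It held separate summits, which the 1-bin gap rule joined. The bin from 34335001 held 198 H3KAc and 5 IgG positions, 10.0 RPM (8.69 to 11.5) and a ratio of 3.81 (1.61 to 11.9), and 0.0126% of covered bins were higher in H3KAc. About 6 kb on, the bin from 34341001 held 122 H3KAc and 2 IgG positions, and its ratio was 5.87 (1.59 to 49.0).

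Right beside it, the bin from 34342001 held 114 H3KAc positions and 10 IgG positions. Its ratio was 1.10 (0.576 to 2.35), although its H3KAc level of 5.78 RPM was close to the 6.19 RPM of its neighbour. It was one of the bins with the most IgG in the interval, for which a low ratio is favoured. A single high bin from 34349001 to 34350000 closed the segment, with 58 H3KAc and 4 IgG positions and a ratio of 1.40 (0.517 to 5.30). Its H3KAc reads were uneven, with 37 on the plus and 21 on the minus strand.

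In the segments named after H2-Ab1 and after H2-Aa, H2-Eb1 and H2-Ea, H3KAc peaked near the position of H2-Ab1. A 2-kb stretch from 34401001 to 34403000 had 4.57 RPM per kb (3.92 to 5.28) in H3KAc and 1.58 (0.580 to 3.44) in IgG, a ratio of 2.89 (1.30 to 7.97). Its bins held 117 and 63 H3KAc positions against 5 and 1 IgG positions. It was narrow and the only high stretch of the H2-Ab1 segment. The summit window, from 34401701, held 29 positions per 100 bp, and from 1100 to 1500 bp after it no H3KAc position was found. The bin directly before the stretch, from 34400001, held 39 H3KAc and 0 IgG positions, below the limit for a high bin. The bin from 34405001 held 39 and 2. The bin that follows the stretch, from 34403001, held 2 H3KAc and 0 IgG positions. Bins without IgG were common in the interval, and whether reads can be aligned to this one was not tested.

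When IgG was summed over the stretch and 5 bins on either side, another alternative added later, the ratio of the H2-Ab1 stretch was 6.93 (4.09 to 12.6). With IgG taken in this way, the Psmb9 to Tap2 stretches of 6 and 10 kb had ratios of 3.07 (2.29 to 4.20) and 2.56 (1.98 to 3.36). The H2-Ab1 stretch together with these bins held 15 IgG positions in 12 kb, the 6-kb stretch with its own 49 in 16 kb and the 10-kb stretch 63 in 20 kb. IgG was higher in the high bins of the interval (1.53 RPM per kb) than in its other bins (0.779). Spreading IgG over neighbouring bins can therefore lower the background set against a stretch and raise its ratio. It did not always do so: the ratio of the stretch from 34272001 to 34274000 fell from 6.55 (1.78 to 54.6) to 3.02 (1.98 to 4.79). The intervals of the H2-Ab1 and the 6-kb stretch overlap, their difference was not tested, and with IgG in the stretch itself the ratios were 2.89 at H2-Ab1 and 2.97 in the 6-kb stretch. In H3KAc per kb the H2-Ab1 stretch lay between the 6-kb and the 10-kb stretch within counting error.

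The H2-Aa to H2-Ea segment had 1 high bin, from 34417001 to 34418000, with 61 H3KAc and 4 IgG positions. Its level was 3.09 RPM (2.37 to 3.98) and its ratio 1.47 (0.545 to 5.56), or 4.97 (2.70 to 9.86) with IgG over the bin and 5 bins on either side. The other bins of the segment held fewer than 46 positions each. The bin from 34446001, named because it was among those with the most IgG, held 41 H3KAc and 10 IgG positions, and no ratio is read from it because that choice favours a low one.

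Near 34.48 Mb, the position given with H2-Ea, no bin was high in H3KAc. The 20 kb from 34470001 to 34490000 had 0.588 RPM per kb (0.515 to 0.669) in H3KAc and 0.580 (0.363 to 0.878) in IgG, a ratio of 1.02 (0.655 to 1.65). Bins there held 7 to 26 H3KAc positions, with a median of 10.0, against 2 to 117 and a median of 13.0 in the 20 kb around H2-Ab1. The windows differed in their highest bins more than in their medians.

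The highest H3KAc of the interval lay before Psmb9, outside the named genes. An 8-kb stretch from 34253001 to 34261000 had 5.44 RPM per kb (5.08 to 5.82) in H3KAc and 1.25 (0.754 to 1.95) in IgG, a ratio of 4.35 (2.77 to 7.26). It held 13.2% of the interval's H3KAc positions, and its bin from 34258001 reached 210 H3KAc and 5 IgG positions, 10.7 RPM. Its bins from 34255001 and 34259001 held 152 and 120 H3KAc positions and 5 and 2 IgG positions. Genes that precede Psmb9 in the RefSeq order are given above, and which of them lies at this stretch was not determined. Lesser high bins followed from 34265001 and from 34272001 to 34274000, with 49 and 136 H3KAc positions and 0 and 2 IgG positions, and 1 preceded it from 34238001 with 53 and 3.

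The profile of this 8-kb stretch was notched. Its highest 100-bp window held 44 positions, the count was 0 in the window 500 bp after it, and it was 20 at 800 bp. The 4 stretches before Psmb9 had summits 20000, 7300 and 6800 bp apart, and the 3 stretches of the Psmb9 to Tap2 segment had summits 10900 and 13500 bp apart. The last of these 3 is the single high bin from 34349001. The tall bin from 34341001 lies within the 10-kb stretch and gives no summit of its own here. Between the 2 groups of stretches the gap was 52000 bp. From the summit of that single high bin to the one at H2-Ab1 it was 52600 bp. High acetylation thus came in clusters with wide gaps between them.

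**Figure D4:**
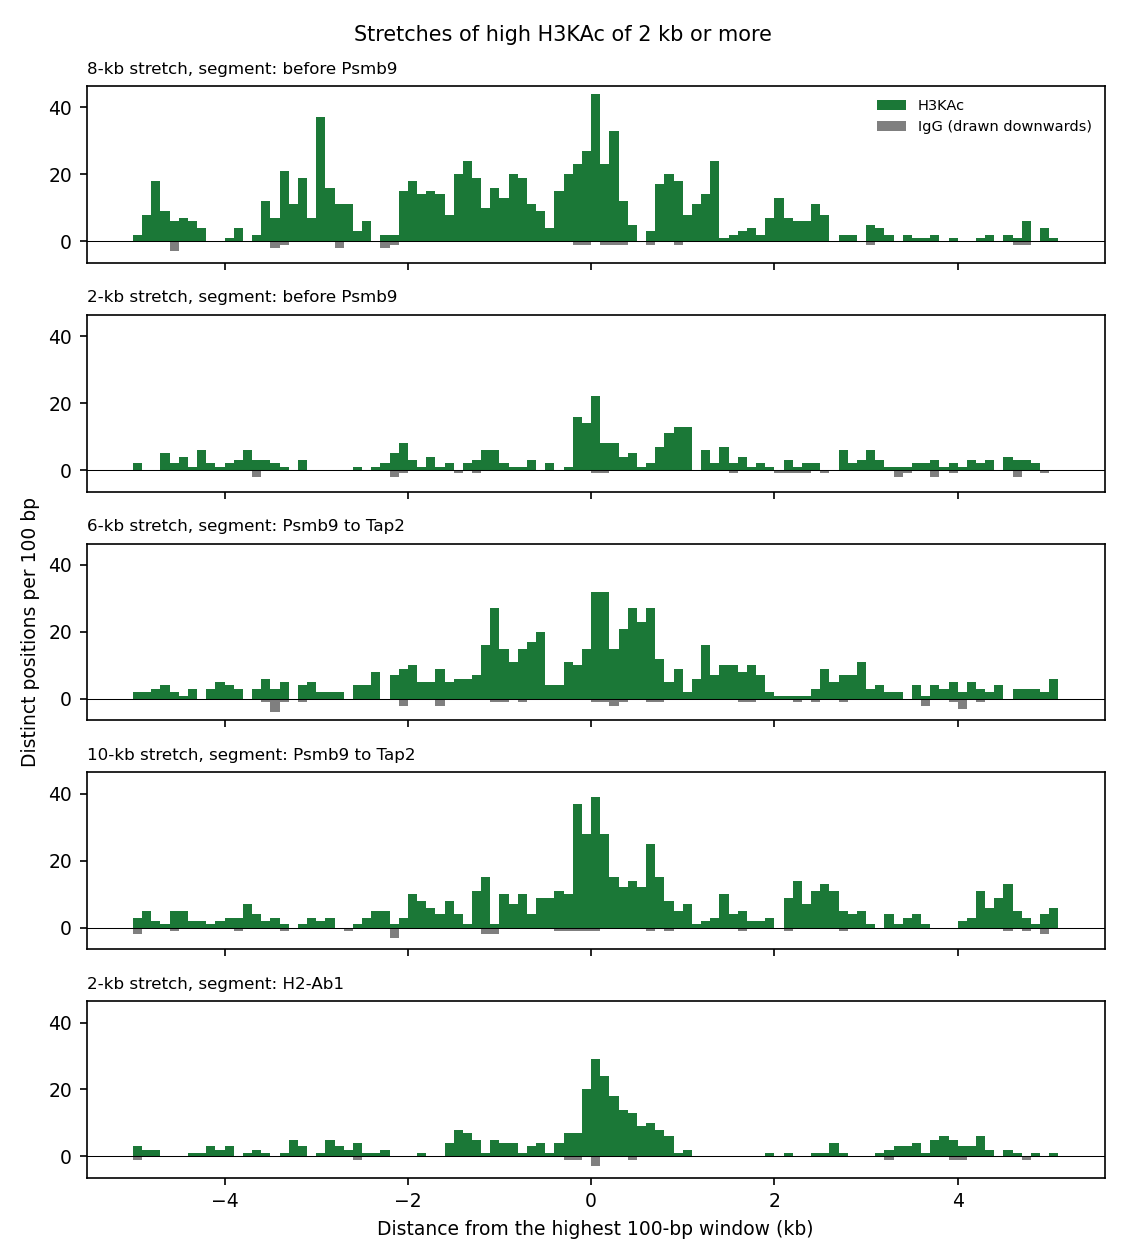
Distinct positions per 100 bp within 5 kb of the highest window of each stretch of at least 2 kb, H3KAc drawn upwards in green and IgG downwards in grey, in chromosome order. The H2-Ab1 stretch is a single narrow summit of 29 positions, while the stretches before Psmb9 and in the Psmb9 to Tap2 segment have several maxima with low windows between them.

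Bins were also called enriched when the lower bound of their own ratio exceeded 2, with at least 5 positions in both libraries together. This called 1 of 270 bins (0.370%), against 0.0524% of all covered bins, and it lay before Psmb9, from 34257001 to 34258000. It held 160 H3KAc positions and no IgG position, and 4.13 was the lower bound of its ratio, which had no upper one. No bin of the Psmb9 to Tap2, H2-Ab1 or H2-Aa to H2-Ea segments was called. A bin with 0, 2 or 5 IgG positions needs 79, 153 or 246 H3KAc positions for a call, and no bin of the interval with 5 IgG positions reached that.

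With IgG over the 11 bins centred on each bin, 17 bins (6.30%) were enriched, against 1.35% of all covered bins. They comprised 7 in the Psmb9 to Tap2 segment, 7 before it, 2 at H2-Ab1 and 1 in the H2-Aa to H2-Ea segment, and all 17 were high in H3KAc. The wider span raised the ratios of some high bins and lowered those of others. As it rests on more IgG positions, its intervals are narrower, and this alone can add calls. In the bin from 34325001 the ratio fell from 4.75 to 4.02, while its lower bound rose from 1.59 to 2.81. In the bin from 34341001 the ratio fell from 5.87 to 4.31. Among the bins whose ratio rose, the one from 34335001 had 6.99 (4.74 to 10.6) with the wider span, against 3.81 with IgG in the bin itself. For the bin from 34324001 these ratios were 4.58 (3.19 to 6.74) and 3.85 (1.48 to 14.3). For the bin from 34401001, at H2-Ab1, they were 8.26 (4.81 to 15.2) and 2.25 (0.938 to 7.07), so with IgG in the bin itself the interval included 1. With a lower bound above 1 and IgG in the same bin, 13 bins were called, against 0.409% of all covered bins. Of these, 5 lay in the Psmb9 to Tap2 segment and 1 at H2-Ab1.

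Sparse stretches lay between Tap2 and H2-Ab1. The longest unbroken run of bins below the genome's median of 6 H3KAc positions went from 34363001 to 34370000, and its 7 bins held 6 H3KAc and 0 IgG positions. H3KAc was 0.0435 RPM per kb (0.0160 to 0.0946) and IgG had an upper bound of 0.278 RPM per kb. All 6 bins of the interval without a read lay in this segment. Whether reads can be aligned to these bins was not tested. The 20 kb around 34.37 Mb had 0.439 RPM per kb in H3KAc and 0.263 in IgG, a ratio of 1.67 (0.884 to 3.54), and no bin above 21 H3KAc positions.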

How the data were processed

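The authors deposited 1 row for each aligned read, giving its chromosome, start, end and strand without normalization and with no other measure. All reads are 35 bases long. The alignment to mm9 was made with Bowtie, per the submitters' processing notes. Its version, its filters and its handling of reads with several alignments are not given in the sources used. PCR preceded the selection of fragments of about 200 bp, per the labels' protocols, so repeated reads were counted once and moved 100 bp, 0.5 of a fragment.

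Counts per 1-kb bin, RPM, exact Poisson intervals and exact conditional binomial (Clopper-Pearson) intervals of the ratio were computed with Python 3.11.15, numpy 2.4.6, scipy 1.17.1 and pandas 2.3.3, and tested on simulated data. The bins named are the 10 with the most H3KAc, those called enriched, the 3 with the most IgG (ties by lower start) and the longest run below the genome's median. Other bins, at the borders of a stretch or beside one, were chosen after their values were seen. The members and lists were chosen with earlier results of these data known. Gene order and promoters came from RefSeq on GRCm38, and no coordinate was taken from it.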

Additional observations from a re-analysis of the deposited data

How the results depend on the processing

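The ratio of 1.42 over the interval stayed between 1.35 and 1.48 with all deposited reads, unmoved reads, IgG scaled by background bins, or 1 strand, and the segment ratios stayed within their intervals. Without the stretches of high H3KAc, an alternative added after seeing the data, the ratio was 1.01 (0.903 to 1.13) over the interval. It was then 1.09 (0.914 to 1.32) before Psmb9 and 0.926 (0.697 to 1.25) from Psmb9 to Tap2. Each of these intervals included 1, and by construction this takes out the bins with the most H3KAc. The 1 enriched bin became 27 with all reads, 17 with IgG over 11 bins and 13 where the lower bound had to exceed 1. It became 3 in 2000-bp bins, 2 in 500-bp bins and 0 with the plus strand. Over the covered bins of the genome, the shares called were 1.76% with all reads, 0.118% of 2000-bp bins, 0.0164% of 500-bp bins and 0.00626% with the plus strand. Of the 27, 14 were high in H3KAc, and none of the 3 in the H2-Aa to H2-Ea segment was. Among the 2000-bp bins called, 1 from 34324001 to 34326000 lay in the Psmb9 to Tap2 segment. With all reads, copies enter the intervals as independent. Lower bounds of the 13 named bins crossed 1 in 11 of 65 comparisons, 6 of them downwards, all with 1 strand, and 5 upwards. The 30 high bins became 82 at the 95th percentile (5.57% of all covered bins) and ranged from 26 to 31 otherwise; with 1 strand, the percentile was taken here over bins covered on that strand, which gave 26 for plus and 28 for minus. No paired analysis was possible because each group has 1 library. The 442 IgG positions of the interval limit every ratio.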

Other observations

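The bins with the most IgG in the interval did not share a level of H3KAc. Those from 34342001 and 34446001 each held 10 IgG positions (5.27 RPM), with 114 and 41 H3KAc positions. The bin from 34301001, which tied with others at 7 IgG positions, held 18 H3KAc positions. Low ratios are favoured in bins chosen for their IgG, so nothing is read from them, including the ratio given above for the bin from 34342001. In the bin from 34402001, the lower one of the H2-Ab1 stretch, H3KAc had 41 plus-strand and 22 minus-strand positions, and in the bin from 34401001 it had 50 and 67.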
